A study of Mus musculus with 4 samples.

Results

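Cytokines of inflammation were examined in the colon of young and old mice: Ifng, Tnf, Il1b, Il6, Il10, Tgfb1, Il18 and Il15. The 8 genes were chosen by symbol among 19938 genes with a probe set of their own, and each was represented by 1 probe set. For 4 of them (Ifng, Tnf, Il1b and Il6) the study also listed PCR primers, and no PCR value was used here. The samples were colonic scrapings, holding mucosa and submucosa, of male C57BL/6J mice, an inbred laboratory strain without genetic modification. They were 4 months (young) or 21 months (old) of age. For 2 weeks they ate a semi-synthetic food with fat at 10% (low-fat) or 45% (high-fat) of energy, in which palm oil took the place of lard. All mice had received the low-fat diet before. RNA of the 6 young or 8 old mice of a diet group was pooled, and each of the 4 pools was measured on its own array (Affymetrix Mouse Gene 1.0 ST). There was therefore 1 array per group, no replicate, and no measure of the spread between mice.

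Cytokines are small secreted proteins by which leukocytes and epithelial cells instruct their neighbours. IFN-γ (Ifng), made by T cells and natural killer cells, acts through STAT transcription factors and induces genes of antigen presentation, while TNF-α and IL-1β, made mainly by macrophages, activate NF-κB. IL-6 and IL-10 both signal through STAT3, the first mostly inflammatory and the second restraining, and TGF-β1 acts through SMAD proteins and favours tolerance in the gut. IL-18 is produced by the colonic epithelium as a precursor that caspase-1 cleaves, and IL-15 maintains intraepithelial lymphocytes. The transcripts of several of these genes are scarce in resting tissue, where only a minority of the cells are leukocytes.

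Of the 8 genes, 6 had a promoter in the RefSeq table of mouse assembly GRCm38.p6, covering 250 bases before to 50 bases after the start of transcription. Shown are the promoters of Ifng, Tnf and Il18, on whose signals the age comparison turned, and that of Gbp3, an IFN-γ-inducible GTPase gene that rose with age. Sequences run 5′ to 3′ and capitals mark a motif match.
Ifng, chr10:118440796-118441095, plus strand: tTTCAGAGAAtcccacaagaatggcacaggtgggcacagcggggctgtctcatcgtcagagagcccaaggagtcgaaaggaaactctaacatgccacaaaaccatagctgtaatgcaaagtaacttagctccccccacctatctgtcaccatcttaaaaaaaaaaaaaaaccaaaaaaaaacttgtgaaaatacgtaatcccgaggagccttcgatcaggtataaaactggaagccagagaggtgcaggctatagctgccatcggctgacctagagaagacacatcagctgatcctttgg
Tnf, chr17:35201958-35202257, minus strand: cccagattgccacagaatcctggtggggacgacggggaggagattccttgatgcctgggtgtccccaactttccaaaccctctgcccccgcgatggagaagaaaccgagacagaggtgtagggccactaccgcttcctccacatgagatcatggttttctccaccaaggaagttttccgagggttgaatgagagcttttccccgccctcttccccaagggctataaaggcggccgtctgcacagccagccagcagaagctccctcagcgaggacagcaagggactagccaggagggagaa
Il18, chr9:50554450-50554749, plus strand: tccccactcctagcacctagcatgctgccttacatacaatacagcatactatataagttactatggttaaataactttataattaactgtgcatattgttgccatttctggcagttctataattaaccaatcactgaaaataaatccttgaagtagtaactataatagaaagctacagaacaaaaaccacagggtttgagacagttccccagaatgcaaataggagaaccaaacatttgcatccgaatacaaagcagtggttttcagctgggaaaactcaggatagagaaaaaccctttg
Gbp3, chr3:142559794-142560093, plus strand: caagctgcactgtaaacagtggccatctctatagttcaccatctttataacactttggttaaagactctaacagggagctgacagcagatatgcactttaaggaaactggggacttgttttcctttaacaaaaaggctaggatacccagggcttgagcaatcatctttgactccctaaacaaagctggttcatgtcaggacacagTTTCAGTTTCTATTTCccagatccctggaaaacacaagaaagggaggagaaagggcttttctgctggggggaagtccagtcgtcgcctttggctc
Searched on both strands were the interferon-stimulated response element (TTTCNNTTTC), the gamma-activated site (TTCNNNGAA), which is its own reverse complement, and the NF-κB consensus, by name κB. Among 32841 promoters of 300 bases these occurred in 3.44%, 8.3% and 8.46%. The Ifng promoter held 1 gamma-activated site, at positions -249 to -241 from the start, and the Gbp3 promoter shown 2 overlapping interferon-stimulated response elements. The table holds another Gbp3 promoter, which had 0 such matches. The Il6 and Tgfb1 promoters held 1 κB match each, and those of Tnf, Il1b and Il18 held none of the 3 motifs. Of 15 measured IFN-γ target genes 10 had a promoter in the table, and 4 of these (Cxcl10, Gbp3, Irgm1 and Socs1) held an interferon-stimulated response element and 3 (Irf1, Irf8 and Psmb8) a gamma-activated site. A match is a string of letters and was not tested for binding.

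Values are linear signals, 2 to the power of the deposited log2 value. The study took genes into account with a signal over 50 on at least 1 array, and this floor (5.64 on the log2 scale) was used here as well. It was passed by 12666 genes, among them Tnf, Tgfb1, Il18 and Il15, while Ifng, Il1b, Il6 and Il10 stayed below it on all 4 arrays. The arrays were alike as a whole, with median log2 signals of 6.121 to 6.201 and 60.6% to 61.7% of the genes over the floor. In the 4 comparisons the median gene differed by -0.03 to 0.01 on the log2 scale. Signals of different probe sets are not comparable as amounts of transcript, so no gene was ranked against another. Marker lists are given as sums of linear signals, in which probe sets with a high signal weigh most.

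Ifng had signals of 36.6 (young low-fat), 26.9 (young high-fat), 30.1 (old low-fat) and 34.6 (old high-fat). The highest and the lowest value both belonged to young pools, so that the age groups overlapped. On the low-fat diet Ifng was 1.22-fold lower on the old array (log2 difference -0.28), and on the high-fat diet 1.29-fold higher (0.37). With signals below the floor these folds are not exact. Among the 7245 genes below the floor on all arrays the central 95% of the age differences ran from -0.45 to 0.40 (low-fat) and from -0.39 to 0.40 (high-fat), and both differences of Ifng lay inside. In an additive limma fit without the floor, which has age and diet as terms, the age change of Ifng was 0.04 ± 0.18 (SE; 95% interval -0.38 to 0.47, adjusted p = 1).

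Il1b, the precursor of secreted IL-1β, had the narrowest range of the 8 genes. Its log2 values spanned 0.12, and its signals were 43.5 and 39.9 in young mice and 43.2 and 41.6 in old mice (low-fat first, as in all such pairs below). The age differences were -0.01 and 0.06 on the log2 scale, and the sign of the first turned under other scalings of the arrays (0.00 after median centring and 0.08 after quantile normalization). Il6 had signals of 7.74 and 8.26 in young mice and 8.18 and 8.97 in old mice, far under the floor. Its age differences were 0.08 and 0.12, within the central 95% of genes below the floor. Without the floor the age changes were 0.03 ± 0.14 (Il1b) and 0.10 ± 0.13 (Il6), with 95% intervals of -0.29 to 0.34 and -0.22 to 0.42.

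Il10, which encodes the main restraining cytokine of the colon, had signals of 13.8 and 12.1 in young mice and 12.4 and 15.6 in old mice. The old high-fat array was the highest and the other arrays lay close together. The age differences were -0.16 (low-fat) and 0.36 (high-fat) on the log2 scale, both inside the central 95% of genes below the floor. The age change without the floor was 0.10 ± 0.17 (95% interval -0.29 to 0.49).

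Tnf passed the floor, unlike the other cytokines with PCR primers. Its signals were 58.4 and 46.6 in young mice and 77.9 and 64.0 in old mice, so that both old pools lay above both young pools. It was higher in old mice by 1.33-fold with low fat and 1.37-fold with high fat (log2 0.41 and 0.46), and the 2 differences, which share no array, were 0.04 apart. On the young high-fat array Tnf was below the floor, so the second fold is not exact. In the additive limma fit the age change was 0.44 ± 0.16 (95% interval 0.09 to 0.78, unadjusted p = 0.018), but it did not pass after Benjamini-Hochberg adjustment over 12666 genes (adjusted p = 0.88, and 0.25 to 1 over the alternative fits). With age as the only term it was 0.44 on all arrays, 0.27 without the young high-fat, 0.30 without the old low-fat, 0.58 without the old high-fat and 0.60 without the young low-fat pool.

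Il18 was likewise higher on both old arrays. Its signals were 543.2 and 429.9 in young mice and 630.5 and 638.2 in old mice, higher in old mice by 1.16-fold with low fat and 1.48-fold with high fat (log2 0.21 and 0.57). The old pools differed by 0.02 on the log2 scale and the young pools by 0.34. The age change was 0.39 ± 0.16 (95% interval 0.02 to 0.76, unadjusted p = 0.039) and did not pass either (adjusted p = 1, and 0.22 to 1 over the alternative fits). With age as the only term it was 0.22 without the young high-fat pool and 0.56 without the young low-fat pool. The summed signal of 16 markers of colon epithelium, the tissue layer that makes IL-18, was 102044.9 and 96398.3 in young mice and 94157.9 and 103283.8 in old mice, and none of these markers passed the fit for age.

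Tgfb1 had signals of 63.7 and 49.8 in young mice and 61.2 and 64.7 in old mice. The young high-fat value stood below the others, just under the floor. The age differences were -0.06 (low-fat) and 0.38 (high-fat), and the fitted change was 0.16 ± 0.17 (95% interval -0.22 to 0.54, adjusted p = 1). With age as the only term the change was -0.02 without the young high-fat array. Il15, of which the signals were 470.9 and 553.4 in young mice and 523.9 and 462.6 in old mice, had the reverse order. It differed by 0.15 (log2) between old and young mice with low fat and by -0.26 with high fat, with a fitted change of -0.05 ± 0.17 (95% interval -0.43 to 0.32, adjusted p = 1).

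**Figure D1:**
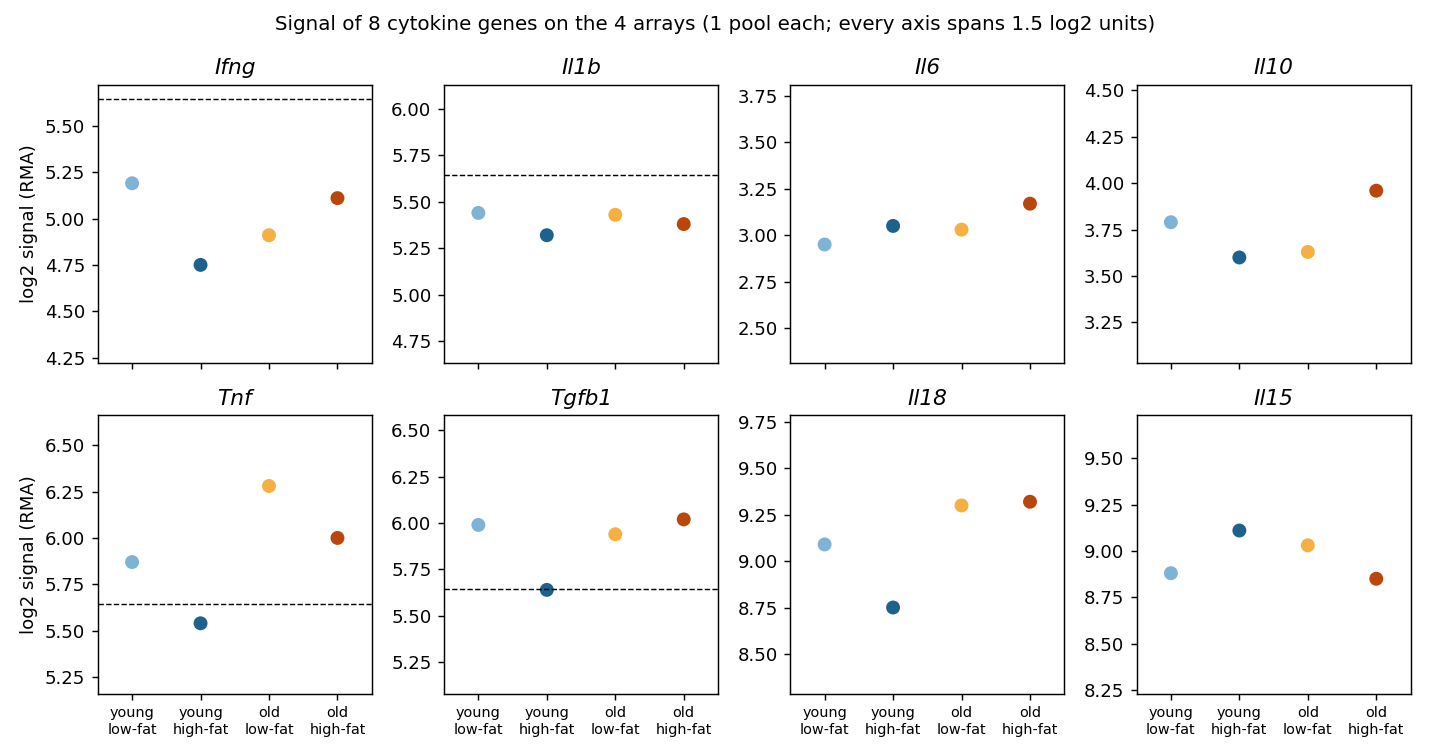
Log2 RMA signal (vertical axis) of the 8 cytokine genes on the 4 arrays (horizontal axis), 1 point per array, which stands for 1 pool and has no error bar; the dashed line marks the floor of 50 (log2 5.64) where it falls within the panel. Tnf and Il18 are higher on both old arrays, and Ifng, Tnf, Il1b, Il10, Tgfb1 and Il18 are lowest on the young high-fat array.

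No cytokine gene reached 2.0-fold in any of the 4 single comparisons, with or without the floor. Of all genes above the floor, 0.426% passed 2.0-fold between old and young with low fat and 0.663% with high fat, and 0.118% and 0.103% passed between the diets in young and in old mice. None of the 8 genes reached 1.5-fold either, the highest being Il18 at 1.48-fold, where 2.26%, 3.41%, 1.45% and 1.14% of the genes above the floor did. In the additive fit 0 of 4 cytokines passed for age, against 0.395% of all genes (0.363% higher and 0.0316% lower in old mice). At an unadjusted p under 0.05, 2 of 4 did (Tnf and Il18), against 3.68% of all genes. Without the floor 0 of 8 passed, against 0.146%, and the same 2 had an unadjusted p under 0.05, against 3.95%. Both old arrays lay above both young arrays for these 2 of the 4 genes above the floor, compared with 16.1% of all such genes, and for 0 of the 4 genes below the floor, compared with 11.5%. No cytokine was lower on both old arrays, which was found for 12.3% and 23.8% of the genes above and below the floor.

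**Figure D2:**
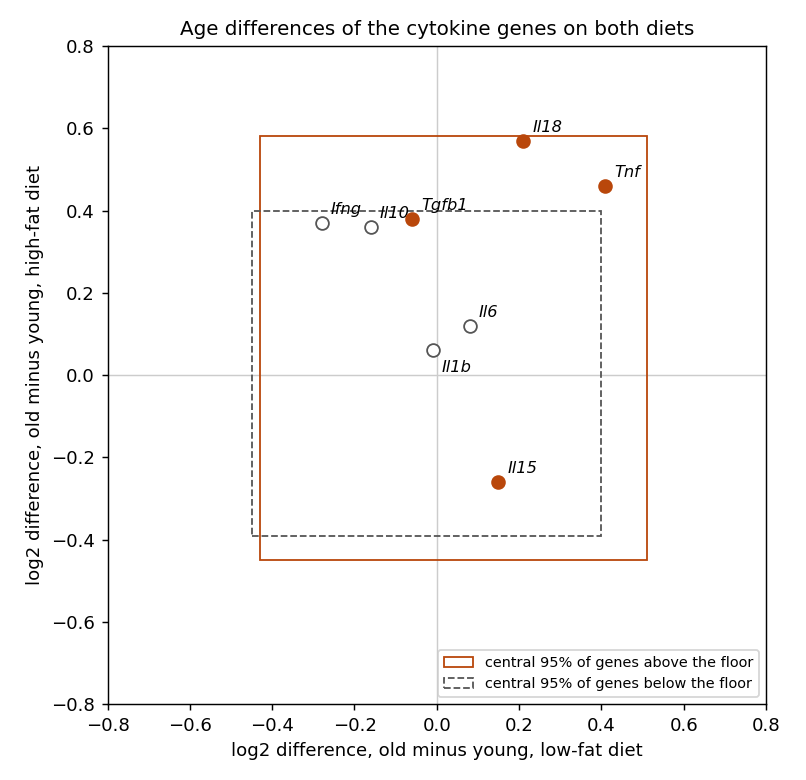
Log2 difference between the old and the young array with low fat (horizontal axis) and with high fat (vertical axis) for the 8 cytokine genes, filled where the gene passed the floor; the rectangles span the central 95% of the differences of the 12666 genes above and the 7245 genes below the floor on each axis. Tnf (0.41 and 0.46) and Il18 (0.21 and 0.57) lie at the upper right, and Ifng, Il10, Il1b and Tgfb1 are lower in old mice with low fat and higher with high fat.

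The age differences had opposite signs on the diets for 5 of the 8 genes, a share near that of all genes. Ifng, Il10, Il1b and Tgfb1 were lower in old mice with low fat and higher with high fat, and Il15 had the opposite pattern. For Il1b the differences were -0.01 and 0.06, and the sign of the first is not stable, as given above. Differences of opposite sign were found for 60.9% of all genes above and 49% of those below the floor. The sign was shared by 2 of the 4 cytokines above the floor (Tnf and Il18), against 39.1% of such genes, and by 1 of the 4 below it (Il6), against 51%. The age difference on the high-fat minus that on the low-fat diet was 0.65 for Ifng, 0.52 for Il10, 0.43 for Tgfb1, 0.36 for Il18, 0.07 for Il1b, 0.04 for Tnf, 0.04 for Il6 and -0.41 for Il15. The central 95% of this contrast ran from -0.52 to 0.61 below the floor and from -0.72 to 0.74 above it, and of the 8 genes only Ifng lay outside. With 1 array per group this contrast was not tested.

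The comparisons between the diets had the same background. In young mice 6 of the 8 genes were lower on the high-fat array, by log2 differences of -0.45 (Ifng), -0.35 (Tgfb1), -0.34 (Il18), -0.33 (Tnf), -0.19 (Il10) and -0.12 (Il1b), whereas Il15 was 0.23 and Il6 0.09 higher. For Ifng this fell just outside the central 95% of genes below the floor (-0.44 to 0.36). The median difference in young mice was 0.00 for all genes above the floor and -0.06 for those below it. In old mice the differences were 0.33 (Il10), 0.20 (Ifng), 0.13 (Il6), 0.08 (Tgfb1), 0.02 (Il18), -0.06 (Il1b), -0.18 (Il15) and -0.28 (Tnf), all inside the central 95% of their class. Tnf was thus lower with the high-fat diet at both ages, with a fitted diet change of -0.30 ± 0.16 (95% interval -0.65 to 0.04, adjusted p = 1). In the limma fit 0 of 4 cytokines passed for diet, 0 at an unadjusted p under 0.05 as well, and of all 12666 genes 0% passed and 0.718% had an unadjusted p under 0.05. Without the floor 0 of 8 had an unadjusted p under 0.05, against 1.29%.

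The 6 genes that were lower on the young high-fat array than on its low-fat counterpart had their lowest signal of all 4 arrays there. This held for 3 of the 4 cytokines above the floor (Tnf, Tgfb1 and Il18) and 3 of the 4 below it (Ifng, Il1b and Il10), where 28.5% and 27.3% of all genes of these classes were lowest on that array. On the same array smooth muscle markers were high and fat cell markers low. The summed signal of 9 smooth muscle markers was 4172.1 on the young high-fat array and 1599.0 to 1923.5 on the others, and 8 of the 9 were highest there. That of 9 adipocyte markers was 797.7 on this array and 1343.7 to 2892.5 on the others, and 7 of the 8 above the floor were lowest there. The old high-fat array held the highest adipocyte sum, and between old and young mice with high fat 5 adipocyte markers were over 2.0-fold higher, among them Adipoq (log2 2.57) and Fabp4 (2.45). In that comparison the signals of all the cytokines but Il15 were higher in old mice, by 0.06 (Il1b) to 0.57 (Il18) on the log2 scale. The median difference there was 0.01 for all genes above the floor and -0.01 for those below it. All 9 smooth muscle markers and 8 of the 9 adipocyte markers passed the floor. Their part in the cytokine differences was not tested, and in pooled scrapings, which hold several cell types, fewer cells of a type and less RNA per cell cannot be told apart.

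**Figure D3:**
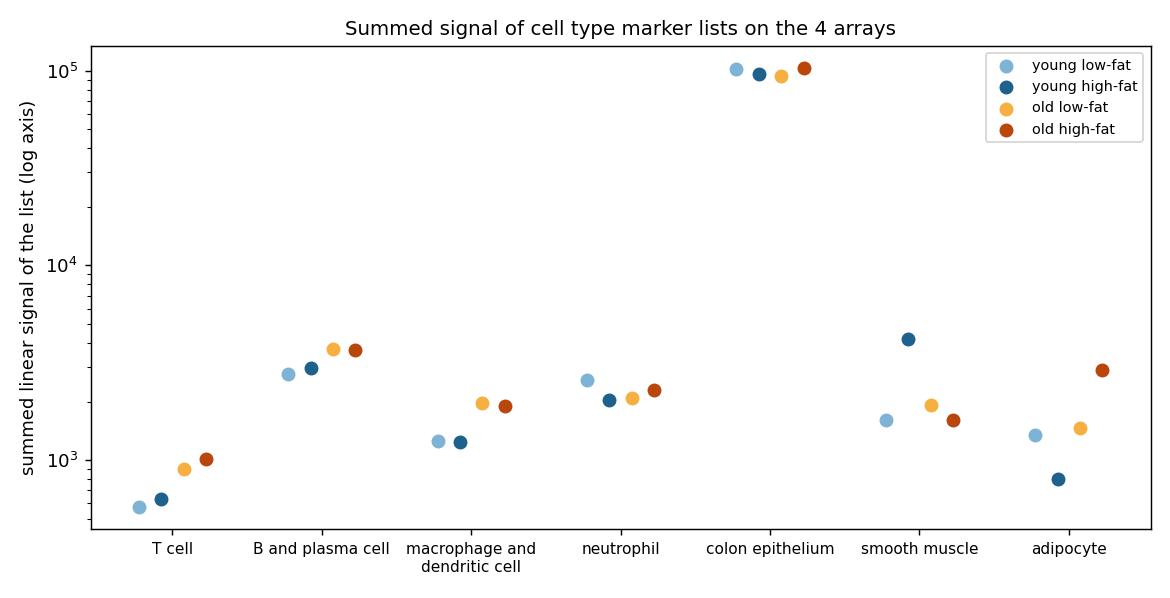
Summed linear signal (vertical axis, log scale) of 7 lists of cell type markers on the 4 arrays, 1 point per array without error, over all measured genes of a list. The sums of T cell, B and plasma cell, and macrophage and dendritic cell markers are higher on both old arrays. That of smooth muscle markers stands out on the young high-fat array (4172.1).

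Markers of T cells, B and plasma cells, and macrophages and dendritic cells had higher summed signals on both old arrays, and 6 of the 25 above the floor passed the fit for age. The summed signal of 9 T cell markers was 571.6 and 629.5 in young mice and 895.8 and 1010.3 in old mice, and that of 13 macrophage and dendritic cell markers 1253.8 and 1242.0 against 1966.4 and 1903.4. For 9 B and plasma cell markers it was 2758.8 and 2969.7 against 3706.8 and 3665.5. Most of this difference came from Jchain, with signals of 426.3 and 469.1 against 1253.3 and 1008.6. Xbp1 and Sdc1, which made up much of the sum, had age changes of -0.02 ± 0.16 and 0.00 ± 0.16. In the additive fit 2 of 5 T cell markers (Cd8a and Cd8b1), 2 of 8 B and plasma cell markers (Ms4a1 and Jchain) and 2 of 12 macrophage and dendritic cell markers (Lyz2 and Cybb) above the floor rose with age, where 0.363% of all genes rose. Ms4a1 passed the floor through the old arrays alone, with signals of 45.0 and 34.9 in young mice and 97.1 and 74.5 in old mice. The floor itself thus favoured its rise, which is part of the counts of 2 of 8 and 6 of 25. Pax5 and Mrc1 also passed the floor through old arrays alone, and did not pass the fit. The marker lists were chosen with earlier results of these data known, so that their direction is not independent evidence. The T cell markers Cd3d, Cd4, Cd5 and Zap70 stayed below the floor. Of 10 neutrophil markers only Ly6g passed the floor, with signals of 2346 and 1860 in young mice and 1888 and 2113 in old mice, which made up most of the summed signal of 2567.1 and 2046.1 against 2089.6 and 2304.4. Beside these sums Tnf was higher on both old arrays and Ifng was not; the part of leukocyte content in the Tnf signal was not tested.

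The receptors of the 8 cytokines were described next. Of 19 listed receptor genes 17 were measured, while Il1r1 and Il2rg were not. Of the 17 measured genes 13 passed the floor, and 0 of 13 passed the fit for age. Their median age differences were 0.08 and 0.11 against 0.01 and 0.01 for all genes. Ifngr1, the ligand-binding chain of the IFN-γ receptor, had signals of 3546 and 3570 in young mice and 3745 and 3597 in old mice. Its partner chain Ifngr2 had an age change of -0.02 ± 0.16. The TNF receptor genes Tnfrsf1a and Tnfrsf1b had age changes of 0.05 ± 0.16 and 0.15 ± 0.16. Il1rap, the accessory chain of the IL-1 receptor, had an age change of 0.25 ± 0.16, and Il1r2, the IL-1 decoy receptor, was below the floor with signals of 20.3 to 26.3. Il6ra and Il6st, both chains of the IL-6 receptor, had age changes of 0.30 ± 0.18 and 0.08 ± 0.16.

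Of the IL-10 receptor, Il10rb had an age change of 0.04 ± 0.16 and Il10ra, the chain specific for IL-10, remained below the floor with 28.1 and 27.9 in young mice and 32.2 and 31.2 in old mice. Tgfbr1, Tgfbr2 and Tgfbr3, which bind TGF-β, had changes of -0.01 ± 0.19, 0.08 ± 0.16 and 0.31 ± 0.16. Both IL-18 receptor genes, Il18r1 and Il18rap, were below the floor on every array, with highest signals of 35.6 and 25.6. Il15ra, which presents IL-15 to neighbouring cells, had signals of 163.9 and 167.1 in young mice and 195.1 and 178.4 in old mice (0.17 ± 0.16), and Il2rb, the chain that receives the signal, had a change of 0.35 ± 0.17. Of all 13 receptor genes above the floor 8 were higher on both old arrays and 0 were lower, against 16.1% and 12.3% of all genes above the floor, and adjusted p was 1 for every one named here.

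Genes that activate or restrain these cytokines did not pass the fit either (0 of 23 above the floor, medians 0.16 and 0.14), and 13 of 23 were higher on both old arrays, against 16.1% of all genes above the floor. Casp1, the protease that matures IL-1β and IL-18, had signals of 1557 and 1938 in young mice and 1777 and 1907 in old mice (age change 0.08 ± 0.16). Il18bp, the soluble inhibitor of IL-18, had 164.6 and 159.4 against 216.9 and 197.8. Its age change was 0.35 ± 0.16 (unadjusted p = 0.046, adjusted p = 1). Il1rn, the IL-1 receptor antagonist, had 306.1 and 366.0 against 455.5 and 404.3 (0.36 ± 0.17, adjusted p = 1). Dcn, which encodes decorin, a matrix protein that binds TGF-β, was over 2.0-fold higher on the old low-fat array (log2 1.14) and, with high fat, by 0.08, with signals of 216.4 and 329.6 in young mice and 476.7 and 347.3 in old mice. Of 23 signal transducers above the floor 0 passed, with medians of 0.04 and 0.10. Of these 23, 6 were higher on both old arrays and 1 was lower, against 16.1% and 12.3% of all genes above the floor.

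Other cytokine genes were mostly below the floor as well, as only 9 of 46 measured reached a signal of 50. Among those below it were Il17a, Il17f, Il23a, Il12b, Il33, Il1a and Ifnb1. The 9 above it were Il27, Il17c, Il7, Ltb, Tnfsf10, Tnfsf11, Tnfsf13b, Il34 and Il16, of which 0 passed for age and 5 were lowest on the young high-fat array. On both old arrays 4 of the 9 were higher and 2 lower, against 16.1% and 12.3% of all genes above the floor. Among the 4, Il16 passed the floor through the old arrays alone, with signals of 39.75 and 34.74 in young mice and 51.07 and 50.47 in old mice. Tnfsf10, which encodes the death ligand TRAIL, had signals of 179.8 and 229.9 in young mice and 326.0 and 287.1 in old mice (0.59 ± 0.18, adjusted p = 0.51). Ltb, lymphotoxin β, a relative of Tnf that organizes lymphoid tissue, had 54.7 and 48.6 against 66.7 and 82.7 (0.53 ± 0.17, adjusted p = 0.69).

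Of 20 listed IFN-γ targets 15 were measured, while Gbp2, Gbp6, Igtp, Irgm2 and Tgtp1 were not. Of the 14 above the floor 4 rose, 0 fell and 10 did not pass, where 0.363% of all genes rose. Their median differences were 0.57 on both diets, and 12 of 14 were higher on both old arrays, against 16.1% of all genes. Among the 12, Iigp1 and Ciita passed the floor through the old arrays alone, so that the floor itself favoured this order. Ciita had signals of 44.90 and 34.20 in young mice and 65.88 and 57.35 in old mice. Iigp1, an immunity-related GTPase gene, had signals of 20.5 and 22.6 in young mice and 62.6 and 53.6 in old mice (1.43 ± 0.17, adjusted p = 0.0058). Both young values were below the floor, so that it entered the fit through the old arrays and its change is not exact; it also passed when no floor was set. Gbp3, of which the promoter is shown above, had 56.2 and 58.9 against 113.4 and 157.3 (1.22 ± 0.17, adjusted p = 0.013). Gbp4, of the same family, had 65.1 and 84.7 against 169.8 and 146.0 (1.08 ± 0.18, adjusted p = 0.039).

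Tap1, a peptide transporter of antigen presentation, had 121.3 and 121.6 against 212.0 and 254.0 (0.93 ± 0.16, adjusted p = 0.045). The immunoproteasome subunit Psmb8 missed the threshold (0.86 ± 0.15, adjusted p = 0.058). These genes respond to type I interferons too. The list was chosen with such changes in these samples known, so that its direction is not independent evidence. Beside these rises the signal of Ifng itself overlapped between the age groups, as given above.

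Of the targets of TNF-α and IL-1β 0 of 14 passed (medians 0.14 and 0.34), and 9 of 14 were higher on both old arrays, against 16.1% of all genes. Vcam1, an adhesion molecule of vessels, had signals of 49.3 and 50.6 in young mice and 74.1 and 74.1 in old mice (0.57 ± 0.16, adjusted p = 0.36). Ccl20, an epithelial chemokine, had 128.4 and 92.0 against 166.9 and 133.2 (0.46 ± 0.16, adjusted p = 0.81), with the same order of arrays as Tnf. Of the targets of IL-6 and IL-10, 0 of 15 passed (medians 0.13 and 0.19). On both old arrays 7 of these 15 were higher and 1 was lower, against 16.1% and 12.3% of all genes above the floor. Among the 7, Osmr passed the floor through the old low-fat array alone (signal 75.07). Among the 15, Reg3g and Reg3b, antimicrobial lectins, were over 2.0-fold lower on the high-fat array in old mice (log2 -1.57 and -1.29). In old mice their signals were 3366 and 3872 with low fat and 1137 and 1587 with high fat. Both were lower with high fat in young mice as well (log2 -0.50 and -0.64). Their fitted diet changes of -1.03 ± 0.23 and -0.96 ± 0.19 did not pass. TGF-β targets had medians of -0.05 and -0.03, with 0 of 15 passing. On both old arrays 2 of these 15 were higher and 4 lower, against 16.1% and 12.3%.

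Lymphocyte genes that depend on or respond to IL-15 and IL-18 were listed last. Of 12 above the floor 5 rose and 0 fell, where 0.363% of all genes rose, with medians of 0.61 and 0.85. This list, too, was chosen with earlier results of these data known, so that its direction is not independent evidence. Gzmb, granzyme B, had signals of 59.4 and 98.8 in young mice and 167.4 and 193.1 in old mice (1.23 ± 0.18, adjusted p = 0.016). Cd8a, a coreceptor of cytotoxic T cells, had 131.4 and 174.7 against 280.6 and 359.1 (1.07 ± 0.16, adjusted p = 0.017). Ccl5 (1.04 ± 0.17), Gzma (1.02 ± 0.16) and Cd8b1 (0.92 ± 0.16) rose as well. The 7 others did not pass, and 2 of the 12, Klrd1 and Xcl1, were lower on both old arrays (age changes of -0.39 ± 0.19 and -0.33 ± 0.17, adjusted p = 1), against 12.3% of all genes above the floor. Klrd1, a natural killer cell receptor gene, had signals of 52.8 and 75.0 in young mice and 50.6 and 45.7 in old mice. The other 6 listed genes, Klrk1, Klrb1c, Klrc1, Ncr1, Fasl and Eomes, were below the floor on all arrays. Cd8a and Cd8b1 are members of the T cell list as well, whose summed signal is given above, and the part of T cell content in these rises was not tested. Il15 itself overlapped between the age groups.

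In all, 9 of 129 pathway genes above the floor passed for age, those named here as risen, and 120 did not. Of all genes above the floor 0.395% passed. Without the floor, when 19911 genes were tested, only Iigp1 passed. With age as the only term 7 pathway genes passed on all 4 arrays.

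**Figure D4:**
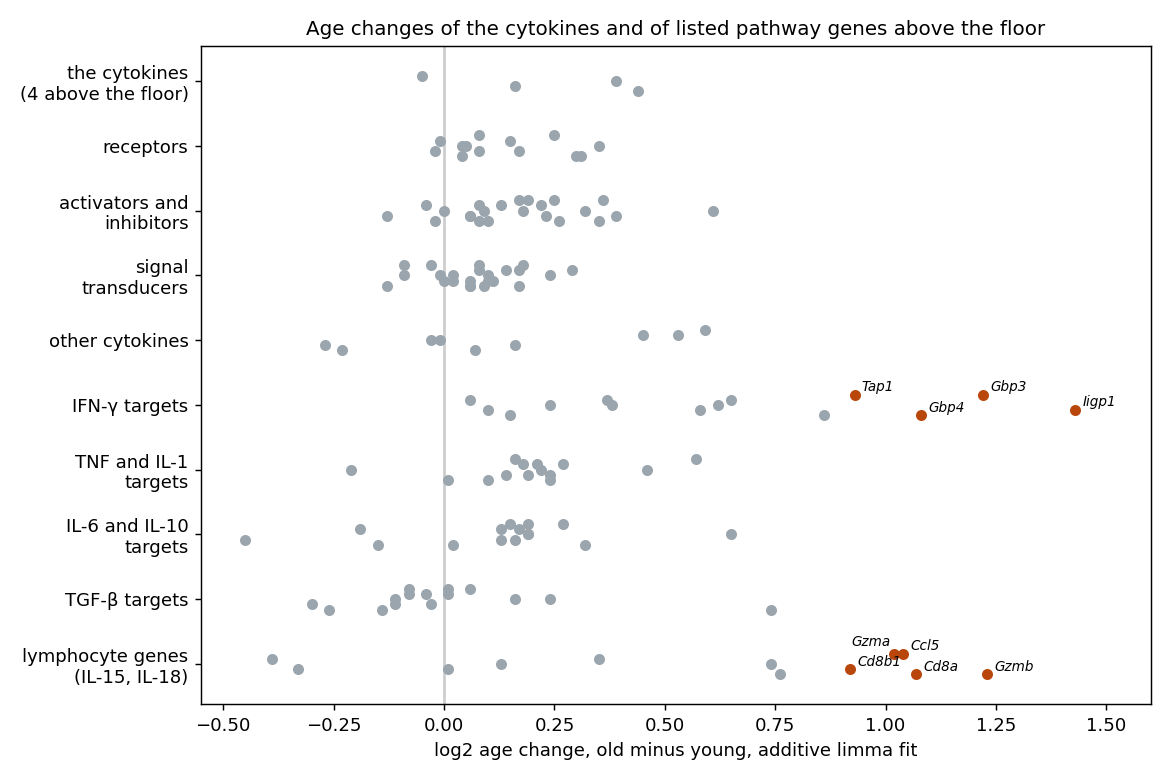
Log2 age change of the additive limma fit (horizontal axis, old minus young) for the 4 cytokines and the listed genes above the floor, 1 point per gene in rows by role, spread vertically for clarity; red points passed at an adjusted p under 0.05. The named red points belong to the IFN-γ targets (Iigp1 at 1.43) and the lymphocyte genes (Gzmb at 1.23), and the cytokines lie between -0.05 and 0.44.

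The genes most alike in pattern were sought among the 12665 other genes above the floor by the Euclidean distance between log2 values centred on each gene's mean over the 4 arrays. For Tnf these were Rdh16 (0.061), Gna14 (0.070) and H2-Eb2 (0.082), and 4 genes lay within 0.1. For Il18 they were Slc6a4 (0.033), Gata4 (0.035) and Hmcn1 (0.048), with 14 genes within 0.1. For Tgfb1 they were Clic6 (0.018), Nt5c1a (0.024) and Extl1 (0.025), and for Il15 Atxn7l3b (0.007), Hsd3b2 (0.013) and Idua (0.017), with 137 and 575 genes within 0.1.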

How the data were processed

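Each deposited value is a log2 signal, obtained by the authors with RMA (background subtraction, quantile normalization, summary of probe sets); software version: not given in the sources used here. For its own analysis the study used probe sets redefined by gene, whereas the deposited rows are numbered as the manufacturer's transcript clusters; no genome build is stated. GEO's platform annotation named 21789 of 35556 probe sets with 1 gene, 1621 with several (not named) and 12146 with none. Entrez identifiers of 21698 were found in RefSeq (GRCm38.p6), where 0 symbols differed. The probe set with the highest mean stood for a gene.

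Following the study, genes with a signal over 50 on at least 1 array entered, pancreatic acinar genes were removed (by a list written for this purpose, 11 above the floor), and single comparisons used 2.0-fold. They compare 1 pool with 1 pool, without a test. In addition, age and diet were fitted as additive terms by moderated linear models (limma 3.58.1, R 4.3.3; threshold 0.05 on p adjusted by Benjamini-Hochberg), with 1 residual degree of freedom and 8.92 from the prior. A true interaction counts as error in this fit, and its SE does not measure spread between mice. An exact permutation test of 2 against 2 arrays cannot go below p = 0.33. The number of arrays limits the precision.

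Members and lists were chosen with earlier results of these data known, so that the direction of a list is not independent evidence. All 8 members, genes of 9 pathway lists that passed or exceeded 2.0-fold, receptors and direct inhibitors, and the 3 genes nearest in pattern were to be named; lists are described by counts and medians. Ccl20, Vcam1, Psmb8, Ciita, Tnfsf10, Ltb, Casp1, Klrd1, Xcl1, Adipoq, Fabp4, the marker genes named and the genes named as below the floor were named after their values were seen. The fit was also run on simulated data, and the outcome is not reported here. Alternatives were other floors, fold thresholds, scalings, probe set means, eBayes settings, fits without the other factor on all arrays and the same fits without 1 array.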

Additional observations from a re-analysis of the deposited data

Results flagged for a closer look

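Age differences of opposite sign on the low-fat and high-fat diets were found for Ifng (log2 -0.28 and 0.37), Il10 (-0.16 and 0.36), Tgfb1 (-0.06 and 0.38), Il1b (-0.01 and 0.06) and Il15 (0.15 and -0.26). Diet differences of opposite sign in young and old mice were found for Ifng (-0.45 and 0.20), Il10 (-0.19 and 0.33), Tgfb1 (-0.35 and 0.08), Il18 (-0.34 and 0.02) and Il15 (0.23 and -0.18). Each group had 1 array, so whether these differences differ between the diets or between the ages was not tested.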

How the results depend on the processing

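No cytokine passed the fit for age or for diet, or exceeded 2.0-fold, under any of the alternatives run for these counts. All 96 recomputed log2 differences of single cytokines (median centring, quantile normalization, mean of probe sets) moved by less than the SE of the fit. That SE belongs to the fitted age change and not to a difference between 2 arrays. With the mean of probe sets they could not move, since each cytokine had 1 probe set. The number of pathway genes that passed for age was 9. It was 1 without the intensity floor, when more genes were tested, and 7 with age as the only term on all 4 arrays. It fell as well without the young low-fat, the old low-fat or the old high-fat array, and did not fall without the young high-fat array. The fits without 1 array dropped the diet term too and left a single array at 1 age, so their counts are not given. The age change of Tgfb1 (0.16) turned to -0.02 without the young high-fat array, and that of Il15 (-0.05) to 0.06 without the young high-fat and 0.04 without the old high-fat array. The other 51 of 54 recomputed age changes kept their direction, but many of them could not move. Other floors, kept acinar genes, other eBayes settings and probe set means leave the estimate as it is. Dropping the diet term on all 4 arrays leaves it too. Only the scalings and the fits without 1 array could change it. No paired analysis was possible because each group had 1 array. Signals below the floor limit what can be said of Ifng, Il1b, Il6 and Il10: a difference at the size of the fit's SE was not detectable.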
